A study of Rattus with 9 samples.

Results

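C1q-positive tissue macrophages of the rat bile duct were examined by single-cell RNA sequencing after sham surgery and after liver transplantation (LT). A cell counted as a member when its barcode had 401 to 5999 detected genes, under 25% mitochondrial and under 3% hemoglobin transcripts among its unique molecular identifiers (UMIs, each a counted mRNA molecule), and at least 5 UMIs of the complement genes C1qa, C1qb and C1qc together, with at least 2 of these 3 genes detected. It also had at least 1 UMI of Tyrobp, a signaling adaptor of myeloid cells, and no UMI of Cd3e, Cd79b, Epcam or Lum, which mark T cells, B cells, epithelium and fibroblasts. The members were thus chosen by measured levels of these 8 genes. The rule found 13049 members among 150379 kept barcodes (8.68%), holding 76616980 UMIs. A member had a median of 4761 UMIs, of which a median of 50 came from the C1q genes. Just inside the limit lay 1306 members (10.0%) with 5 to 9 C1q UMIs, and just outside it lay 7479 barcodes that met the conditions on Tyrobp and on the 4 absent genes but had 1 to 4 C1q UMIs. Levels of C1q and Tyrobp, and any difference of members from other cells, follow from this choice and are given as description.

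C1q is the recognition unit that starts the classical complement pathway, and tissue macrophages are its main source. It coats dying cells and immune complexes, which macrophages then take up. Uptake receptors of macrophages include Mertk, for apoptotic cells, and the scavenger receptors Cd163, for hemoglobin, and Mrc1, for mannose-bearing glycoproteins. C1q-positive cells in most organs comprise long-lived residents that line vessels and ducts, often marked by Folr2 and Lyve1, and cells that have recently matured from blood monocytes.

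The 9 samples comprised 3 sham samples, 3 graft samples taken 1, 3 and 7 days after LT with a warm ischemic injury to the graft (transplant), and 3 taken on the same days after that LT with ligation of the splenic and gastroduodenal arteries, done to raise flow in the hepatic artery (raised flow). Rats were of the Sprague-Dawley strain, male and female, and 6 to 8 weeks old. Strain and age come from the methods and not from the labels, which give the tissue only as bile duct. Cells of all groups were released by enzyme digestion, with lysis of red cells and removal of dead cells. Each sham sample was 1 library, and each LT sample held 2 or 3 libraries, 20 in all. A single sample per day and treatment was available, so days were compared across both treatments and treatments across days. The labels do not say whether samples or libraries were separate rats.

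Libraries differed in depth and yield. Kept barcodes per library ranged from 337 to 13575 and members from 28 to 1468. Sham 1 stood apart from the other sham samples with a median of 1229 UMIs per member, against 3734 and 3050 in sham 2 and 3, and with an estimated 7.92% of member UMIs from free RNA, against 2.39% in sham 2. Of the 864 members at transplant day 1, 752 came from library 1, also with 7.92% free RNA and a median of 1438 UMIs. Of the 1073 members at transplant day 3, 1017 came from library 1, and libraries 2 and 3 kept 437 and 337 barcodes with 28 members each. Any pair of the 20 libraries shared at most 1.19% of kept barcodes and at most 2 members.

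C1q-positive macrophages were found in every library, and their share of kept barcodes did not separate sham from LT samples. They made up 15.96%, 9.58% and 6.83% of kept barcodes in sham 1, 2 and 3 (392 of 2456, 955 of 9971 and 818 of 11980). The transplant samples held 6.26%, 13.2% and 10.4% at days 1, 3 and 7, and the raised flow samples 5.06%, 6.40% and 10.9%. The lowest shares after LT were both at day 1, and the highest share of all was in sham 1, whose 95% Wilson interval was 14.6% to 17.5%. The mean was 10.8% ± 4.69 (SD, n = 3) in sham and 8.70% ± 3.23 (SD, n = 6) in LT samples, a difference of -2.09 percentage points (exact two-sided permutation p = 0.476, where 0.0238 is the smallest p that 84 groupings allow). Without sham 1 the difference was 0.493 percentage points (exact permutation p = 0.857). Transplant and raised flow samples had 9.95% ± 3.48 and 7.45% ± 3.05 (SD, n = 3 each, exact permutation p = 0.500, with 0.100 the smallest possible). Libraries of a single sample ranged widely, from 0.881% to 10.9% at transplant day 1 and from 6.04% to 17.1% at raised flow day 7. Intervals cover counting error only, and a share also moves with the yield of other cell types and with depth: the median UMIs of a member were 2671 ± 1295 in sham and 5295 ± 2283 in LT samples (SD, exact permutation p = 0.0952).

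**Figure D1:**
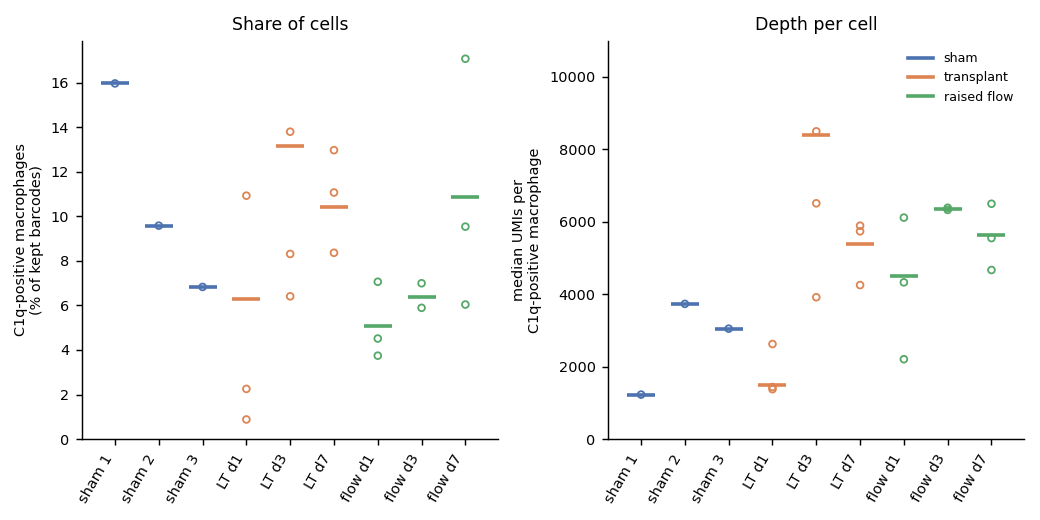
C1q-positive macrophages as a percent of kept barcodes, and their depth, for the 9 samples on the horizontal axis. The left panel gives the share and the right panel the median UMIs per member. Bars are samples and circles their libraries. The 3 sham samples span 6.83% to 15.96% and the 6 LT samples 5.06% to 13.2%, so the groups overlap, and the median UMIs run from 1229 in sham 1 to 8404 in transplant day 3.

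The cells carried the genes of mature tissue macrophages. Values here are means over the 9 samples of UMIs per 1000000 UMIs of the cells named (CPM), set beside all other kept barcodes and beside 10336 cells with at least 1 UMI each of Csf1r (the receptor of the macrophage growth factor CSF1) and Tyrobp, no C1q UMI and none of the 4 excluded genes. Mrc1 was at 491 CPM in members, 22.9 CPM in all other kept barcodes and 112 CPM in the Csf1r-positive C1q-negative cells. Folr2, a folate receptor of resident macrophages, was at 330 CPM in members, 18.3 CPM in all other kept barcodes and 84.9 CPM in the Csf1r-positive C1q-negative cells. Cd163 was at 208 CPM in members, 7.11 CPM in all other kept barcodes and 24.4 CPM in the Csf1r-positive C1q-negative cells. The highest ratio to other barcodes after the C1q genes, with 5 CPM added to both levels, was that of Mmp12, a macrophage elastase, at 452 against 10.9 CPM. Cxcl13, the chemokine that attracts B cells, was at 239 CPM in members and 0.572 CPM in the Csf1r-positive C1q-negative cells. Apoe, the lipoprotein of lipid export, was at 8396 against 766 CPM in these 2 gates.

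Csf1r itself was at 534 CPM in members and 490.2 CPM in the C1q-negative gate. Genes of blood monocytes were lower in members: Fcnb, a ficolin of monocytes, was at 106 against 1121 CPM. Vcan, a matrix proteoglycan made by classical monocytes, was at 80.95 against 676 CPM, and Plac8 at 1485 against 6635 CPM. The summed level of the 9 macrophage markers was 3325 to 3500.3 CPM in sham members and 3786 to 5705 CPM in LT members, against 182 to 1238 CPM in other barcodes. The label of the population therefore matched its markers, while liver-resident Kupffer cell genes were near 0 in sham members, as described further on. Of 4077 epithelial barcodes (at least 3 UMIs of Krt19, with Epcam and without Tyrobp), 6 (0.147%) passed the C1q limit.

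**Figure D2:**
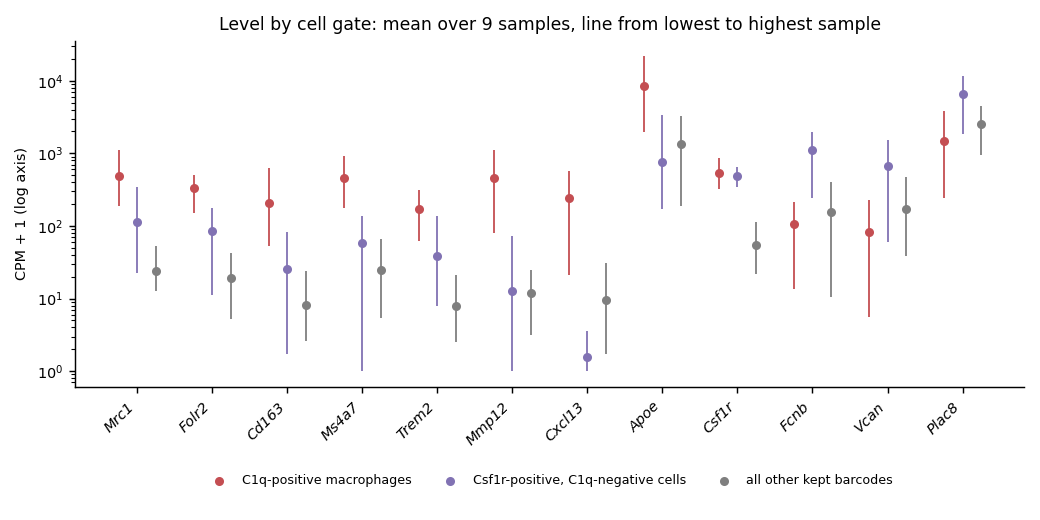
Mean CPM over the 9 samples, on a log axis, of 12 genes in C1q-positive macrophages, in Csf1r-positive C1q-negative cells and in all other kept barcodes, with lines from the lowest to the highest sample. Mrc1, Folr2, Cd163, Ms4a7, Trem2, Mmp12, Cxcl13 and Apoe lie highest in members, and Fcnb, Vcan and Plac8 lie highest in the Csf1r-positive C1q-negative cells.

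Members of LT samples were then compared with sham members gene by gene, to ask how C1q-positive macrophages of the duct differed after transplantation. UMIs of members were summed per sample, and 11125 genes were tested with edgeR's quasi-likelihood test with Benjamini-Hochberg adjustment. Levels of members below are CPM scaled by TMM factors, those of other cells are unscaled, fold changes are on the log2 scale and given ± the standard error, and genes with an adjusted p under 0.05 are called. The test called 1059 genes (9.52% of those tested), of which 531 were higher (4.77%) and 528 lower (4.75%) after LT. An unadjusted p under 0.05 was found for 3460 genes (31.1%). Values of the 3 sham and 6 LT samples did not overlap for 2148 genes (19.3%), 1193 higher (10.7%) and 955 lower (8.58%). With library size in place of TMM, 900 genes were called, 241 higher and 659 lower, and the median log2 fold change of all genes moved from -0.09 to -0.25. The split between higher and lower genes thus depended on the scaling.

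The number of calls rested on single samples. It was 0 without sham 3 (2034 genes at an unadjusted p under 0.05), 58 without sham 2 and 2658 without sham 1. Leaving out an LT sample gave 217, 711 and 19 calls without transplant day 1, 3 and 7, and 293, 277 and 33 without raised flow day 1, 3 and 7. Of the 90 called genes of the lists and the naming rule, all kept their direction in each of these fits, 89 stayed called without sham 1, 16 without sham 2 and 0 without sham 3. In 14 other alternatives of scaling, gate, filter, test and samples, 28 of the 90 kept their call throughout, 43 lost it in 1 to 3 and 19 in 4 or more, and 22 stayed called in 1 of the 9 leave-one-out fits. Of the genes named below, C6, Mmp9 and Fabp5 lost their call in 7 of the 14, Apoe, Fcgr2b, Pkm, Dusp1, Pdgfa and Selenos in 6, and Blvra and Gclm in 5.

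The largest rise among genes with at least 20 CPM in the higher group that members expressed at least as highly as other cells was that of Cd8a, which with Cd8b encodes the CD8 co-receptor of T cells, a protein that rat macrophages are also known to carry. Cd8a was at 6.91, 23.9 and 3.31 CPM in the 3 sham samples. After transplant Cd8a was at 238, 380.4 and 439 CPM on days 1, 3 and 7, and with raised flow at 162, 276 and 254 CPM (log2 fold change 4.50 ± 0.58, adjusted p = 0.0123). Every LT sample was above every sham sample. Libraries 1, 2 and 3 of transplant day 1 held 261, 0 and 20.8 unscaled CPM of Cd8a and 27.8, 0 and 0 of Cd8b. Sham 2 held 24.8 unscaled CPM of Cd8a, so the height of transplant day 1 rested on library 1. In raised flow day 1, libraries 1, 2 and 3 held 285, 91.4 and 26.4 unscaled CPM of Cd8a. They held 21.96, 4.19 and 2.99 unscaled CPM of Cd8b, against 3.75 in sham 2. Library 3 was thus close to sham 2 for Cd8a, and the height for Cd8b rested on library 1. Cd8b was at 0, 3.61 and 2.31 CPM in sham and at 12.2 to 58.1 CPM with a median of 36.3 in LT samples (log2 fold change 3.64 ± 0.40, adjusted p = 0.0107). Both genes stayed called in all 14 alternatives other than the leave-one-out fits, and Cd8a had a log2 fold change of 4.02 without sham 3 (adjusted p = 0.069) and of 4.47 without transplant day 7 (adjusted p = 0.059). Cd8b had a log2 fold change of 3.57 without sham 3 (adjusted p = 0.11). The sum of T cell markers, whose part in these values was not tested, had a higher median after LT. The sum of Cd3e, Cd3d, Cd3g, Cd2 and Cd5 in members was 1.45 to 14.8 CPM in sham (median 2.64). In LT samples it was 4.58 to 29.4 CPM (median 11.2), with 1 of the 5 risen and Cd3e at 0 by the rule. The day 1 and day 3 samples, at 4.58 to 12.9 CPM, lay inside the sham range, and the day 7 samples lay above it. Mean Cd8a levels in sham and LT samples were 7.79 and 133 CPM in the Csf1r-positive C1q-negative cells and 7.84 and 85.4 CPM in all other barcodes. In the gate that also required no UMI of Cd3d and 5 other lineage genes, Cd8a had a log2 fold change of 4.43 (adjusted p = 0.014).

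The other 10 genes named for their rise included cytokine regulators and receptors. Il18bp, the soluble inhibitor of interleukin 18, was at 11.8, 17.8 and 12.9 CPM in sham and at 62.4 to 398 CPM with a median of 158 after LT (log2 fold change 3.33 ± 0.37, adjusted p = 0.0107), with no overlap. Il15ra, which presents interleukin 15 to neighboring lymphocytes, was at 4.93, 2.65 and 1.98 CPM in sham and 8.78 to 41.6 CPM with a median of 19.8 after LT (log2 fold change 2.69 ± 0.36, adjusted p = 0.0125). The chemokine Cxcl11, a ligand of CXCR3, overlapped between the groups, with 9.87, 2.41 and 20.5 CPM in sham and 17.3 to 759.9 CPM with a median of 128 after LT (log2 fold change 3.41 ± 0.82, adjusted p = 0.041). Its highest value was in raised flow day 3. Cxcl13 was at 98.7, 19.5 and 59.2 CPM in the 3 sham samples. After transplant Cxcl13 was at 327, 188 and 435 CPM on days 1, 3 and 7, and with raised flow at 172, 352 and 609 CPM (log2 fold change 2.51 ± 0.53, adjusted p = 0.0308), and all LT samples were above sham.

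Hk3, the hexokinase of myeloid cells, was at 8.88, 13.98 and 10.9 CPM in sham and 35.4 to 158 CPM with a median of 82.8 after LT (log2 fold change 2.74 ± 0.25, adjusted p = 0.00829). Clec4b2, a C-type lectin of myeloid cells, was at 1.97, 3.61 and 3.31 CPM in sham and 16.6 to 25.9 CPM with a median of 19.6 after LT (log2 fold change 2.67 ± 0.24, adjusted p = 0.00829). Both separated fully from sham. Layn, a hyaluronan receptor, was at 0.987, 8.68 and 9.59 CPM in sham and 14.5 to 126 CPM with a median of 69.4 after LT (log2 fold change 3.04 ± 0.61, adjusted p = 0.0276). Pla2g7, the secreted phospholipase that inactivates platelet-activating factor, was at 49.3, 12.5 and 13.6 CPM in sham and 50.9 to 193 CPM with a median of 136 after LT (log2 fold change 2.41 ± 0.52, adjusted p = 0.0312). Unscaled, Pla2g7 was at 57.0 CPM in sham 1 and at 49.2 and 36.6 CPM in the libraries of raised flow day 3. The remaining pair overlapped with sham. Ly6h was at 0, 1.69 and 0.992 CPM in sham and 0 to 83.4 CPM with a median of 18.9 after LT (log2 fold change 3.204 ± 0.80, adjusted p = 0.0448). C6, a late component of complement, was at 1.97, 7.23 and 4.96 CPM in sham and 5.89 to 53.1 CPM with a median of 34.1 after LT (log2 fold change 2.42 ± 0.63, adjusted p = 0.0494). Ly6h was at 0 in transplant day 1 as in sham 1.

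Among genes that fell and met the same conditions (at least 20 CPM in sham, and a level in members at least as high as in other cells), Cd207, the langerin of Langerhans cells and some tissue dendritic cells and macrophages, had the largest change. It was at 11.8, 43.9 and 40.0 CPM in the 3 sham samples. After transplant Cd207 was at 26.2, 0.202 and 0.677 CPM on days 1, 3 and 7, and with raised flow at 7.54, 0.314 and 0.111 CPM (log2 fold change -5.06 ± 0.45, adjusted p = 0.00829). The day 1 samples still held 26.2 and 7.54 CPM, the first of these within the sham range, and the later samples held under 1 CPM. The call of Cd207 was lost in the model without terms for day and raised flow. Ltc4s, which makes leukotriene C4, was at 109.5, 156 and 267 CPM in the 3 sham samples. After transplant Ltc4s was at 70.1, 14.3 and 7.65 CPM on days 1, 3 and 7, and with raised flow at 24.6, 1.41 and 4.60 CPM (log2 fold change -3.97 ± 0.38, adjusted p = 0.00839), and the day 1 samples were the highest of each treatment. Mmp12 was at 952, 719.6 and 998 CPM in the 3 sham samples. After transplant Mmp12 was at 437, 76.5 and 136 CPM on days 1, 3 and 7, and with raised flow at 263, 128 and 144 CPM (log2 fold change -2.38 ± 0.23, adjusted p = 0.00847), with every LT sample below every sham sample. Libraries 1, 2 and 3 of transplant day 1, with 752, 28 and 84 members, held 318, 1680 and 1110 unscaled CPM of Mmp12. The sham samples held 747 to 1100 unscaled CPM, so the low value of transplant day 1 rested on library 1. F13a1, the clotting factor XIII A chain of resident macrophages, was at 59.2, 317 and 171 CPM in the 3 sham samples. After transplant F13a1 was at 96.2, 70.6 and 18.9 CPM on days 1, 3 and 7, and with raised flow at 139, 23.1 and 5.26 CPM (log2 fold change -2.25 ± 0.50, adjusted p = 0.0336) and overlapped with sham at day 1 and in transplant day 3.

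Ednrb, an endothelin receptor, was at 14.8, 39.3 and 32.7 CPM in sham and 1.33 to 13.8 CPM with a median of 6.52 after LT (log2 fold change -2.44 ± 0.33, adjusted p = 0.0125). Etv1, an ETS family transcription factor, was at 11.8, 46.99 and 32.1 CPM in sham and 2.35 to 11.4 CPM with a median of 6.60 after LT (log2 fold change -2.33 ± 0.43, adjusted p = 0.0242). Zc3h12c, of the regnase family that degrades cytokine mRNA, was at 22.7, 17.6 and 23.1 CPM in sham and 2.29 to 10.2 CPM with a median of 5.51 after LT (log2 fold change -1.98 ± 0.24, adjusted p = 0.0123). These 3 genes did not overlap between groups. Cideb, a lipid droplet protein, was at 70.1, 536 and 479 CPM in sham and 52.9 to 141 CPM with a median of 75.8 after LT (log2 fold change -2.18 ± 0.53, adjusted p = 0.0422). Acp5, the tartrate-resistant acid phosphatase of macrophages and osteoclasts, was at 506, 155 and 192 CPM in sham and 18.4 to 259 CPM with a median of 73.8 after LT (log2 fold change -1.97 ± 0.40, adjusted p = 0.0275). Sham 1 lay inside the LT range for Cideb and above it for Acp5, where transplant day 1 exceeded sham 2 and 3. Fcmr, the IgM Fc receptor, Giot1, a zinc finger protein, and Tnfsf18, the ligand of GITR, fell with log2 fold changes of -2.14, -2.05 and -1.98 (adjusted p = 0.0348, 0.0267 and 0.0405), each with sham 1 inside the range of the LT samples. Some markers of other cells fell in the same members. The sum of 5 biliary epithelial markers was 124 to 255 CPM in sham and 27.03 to 173 CPM after LT, with medians of 222 and 43.7 (2 fell, Epcam at 0 by the rule). That of 5 fibroblast markers was 57.2 to 383 CPM with a median of 302 in sham and 78.5 to 122 CPM with a median of 100.9 after LT (1 fell, Lum at 0 by the rule), and 1 of 4 endothelial markers fell. Their part in the falls was not tested.

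**Figure D3:**
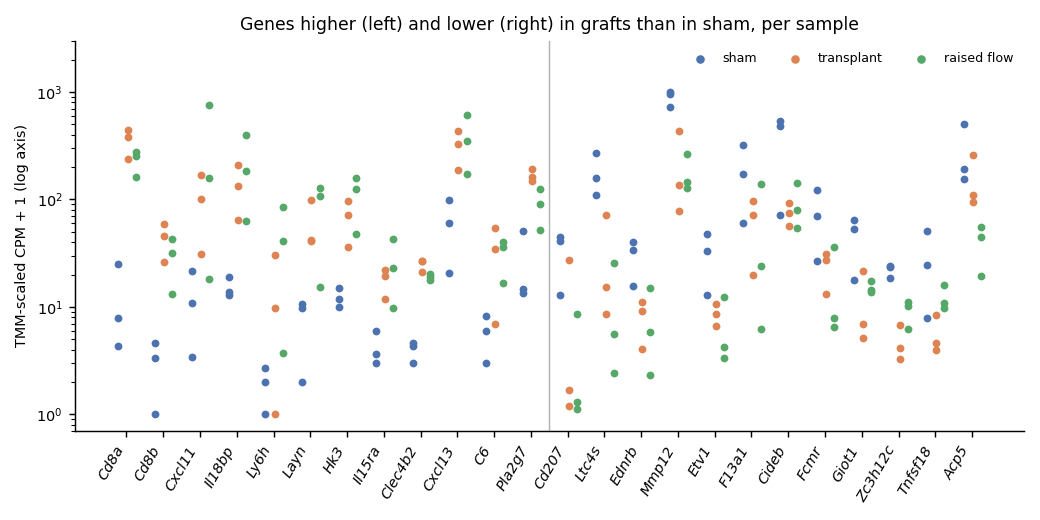
TMM-scaled CPM plus 1, on a log axis, of the 12 genes with the largest rise and the 12 with the largest fall in C1q-positive macrophages of LT samples against sham, among genes with at least 20 CPM that members expressed at least as highly as other cells. Each point is a sample, in the color of its group. For Cd8a the sham samples lie at 3.31 to 23.9 CPM and the LT samples at 162 to 439 CPM, and for Mmp12 the order is turned, with sham at 719.6 to 998 CPM and LT at 76.5 to 437 CPM.

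Counts in the gene lists stand beside the 4.77% of all genes called higher and 4.75% called lower, and nothing is read from 1 to 3 calls of a list in 1 direction beyond the genes themselves. Of 22 tested genes for receptors and secreted proteins of resident macrophages, 1 rose, 4 fell and 17 were not called, with a median log2 fold change of -0.56 against -0.09 over all genes. Selenop, the selenium transport protein, was at 97.7, 125 and 152 CPM in sham and 20.7 to 108 CPM with a median of 23.9 after LT (log2 fold change -1.81 ± 0.33, adjusted p = 0.0235), with only transplant day 3 inside the sham range. Slco2b1, an organic anion transporter of resident macrophages, fell by 1.46 on the log2 scale (adjusted p = 0.0453), as did F13a1 above. Mertk rose, with 13.8 to 19.2 CPM in sham and 23.9 to 39.1 CPM with a median of 34.5 after LT (log2 fold change 1.02 ± 0.23, adjusted p = 0.035), and the groups did not overlap for Mertk.

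The markers most used for residency were not called. Mrc1 was at 172, 638 and 763 CPM in the 3 sham samples. After transplant Mrc1 was at 245, 592 and 329 CPM on days 1, 3 and 7, and with raised flow at 983, 385 and 197 CPM (log2 fold change -0.30 ± 0.53, adjusted p = 0.736). Folr2 was at 128 to 382 CPM in sham and 262 to 492 CPM with a median of 356 after LT (log2 fold change 0.38 ± 0.33, adjusted p = 0.456). Lyve1, the hyaluronan receptor of perivascular macrophages, was at 104, 526 and 268 CPM in the 3 sham samples. After transplant Lyve1 was at 136, 189 and 51.4 CPM on days 1, 3 and 7, and with raised flow at 351, 31.6 and 15.4 CPM (log2 fold change -1.71 ± 0.61, adjusted p = 0.104). Its 3 lowest samples were transplant day 7 and raised flow days 3 and 7. Cd163 was at 69.1, 97.1 and 93.2 CPM in the 3 sham samples. After transplant Cd163 was at 226, 377 and 92.4 CPM on days 1, 3 and 7, and with raised flow at 564, 259 and 54.6 CPM (log2 fold change 1.27 ± 0.35, adjusted p = 0.055), higher than every sham sample at days 1 and 3 of both treatments and within or below the sham range at day 7.

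**Figure D4:**
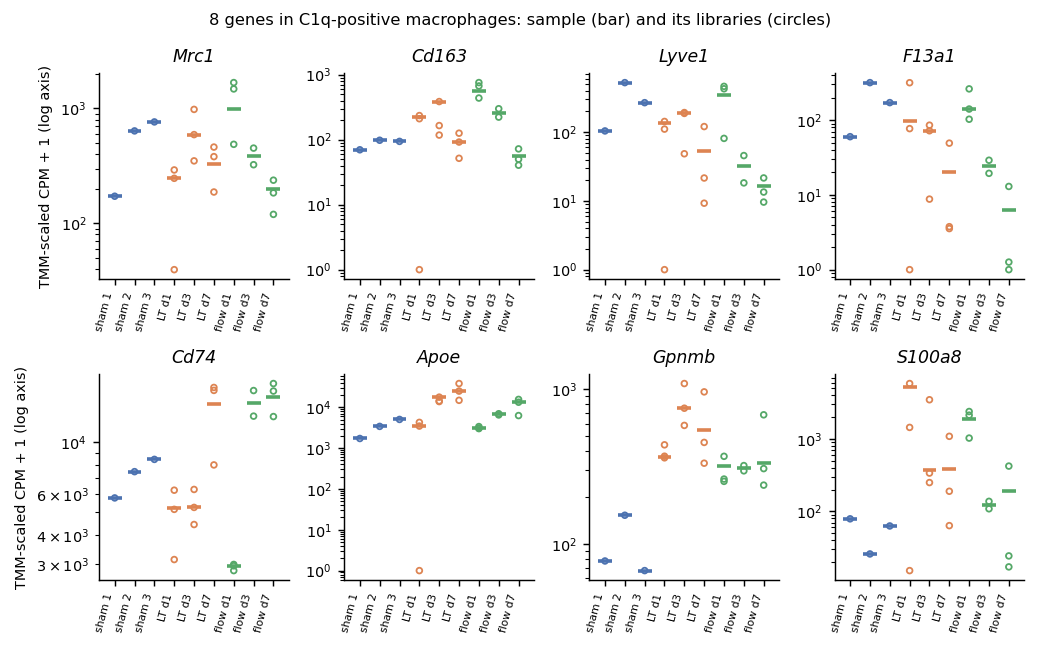
TMM-scaled CPM plus 1, on a log axis, of 8 genes in C1q-positive macrophages of the 9 samples (LT stands for transplant, flow for raised flow, d for day). Bars are samples and circles are libraries. Lyve1 and F13a1 are lowest in the later LT samples, Cd74 is lowest at raised flow day 1, and 1 library of transplant day 1 with 28 members reads 0 for Apoe, Cd163, Lyve1 and F13a1.

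Kupffer cell genes, which mark the resident macrophages of liver sinusoids, appeared in members of some LT samples. The sum of Clec4f, Vsig4, Marco and Cd5l was 0 to 2.17 CPM in sham and 2.29 to 524 CPM in LT members, and none of the 4 genes was called. Marco, a scavenger receptor for bacteria, was at 0 in the 3 sham samples and in transplant day 1, and at 37.5 and 303 CPM in transplant day 7 and raised flow day 1. In unscaled CPM the 3 libraries of raised flow day 1 had 352, 0 and 516. Members with at least 2 Kupffer genes detected numbered 0 in each sham sample, 0, 2 and 32 in transplant days 1, 3 and 7, and 23, 2 and 15 in raised flow days 1, 3 and 7. Liver tissue in the digested duct was not measured otherwise, and its part in these values was not tested.

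Of 15 complement genes tested beyond C1q, 2 rose, 2 fell and 11 were not called, with a median of 0.13 against -0.09 over all genes. Cfb, factor B of the alternative pathway, rose, with 0.992 to 1.97 CPM in sham and 2.60 to 20.3 CPM with a median of 10.3 after LT (log2 fold change 2.57 ± 0.47, adjusted p = 0.0235). Serping1, the inhibitor of C1, rose, with 5.54 to 13.8 CPM in sham and 12.8 to 90.9 CPM with a median of 42.5 after LT (log2 fold change 2.08 ± 0.48, adjusted p = 0.0367). The day 1 samples and transplant day 3 had 12.8, 15.7 and 17.6 CPM of Serping1, near the sham range, and the other LT samples were higher. The receptor C3ar1 fell by 1.18 on the log2 scale (adjusted p = 0.0241). C3 and C2 had log2 fold changes of 0.84 and 0.93 (adjusted p = 0.131 and 0.0901).

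Of 13 tested genes of antigen presentation on MHC class II, 2 rose after LT and none fell (median 0.51), and the median log2 fold change of day 7 against day 1 was 2.04 against 0.01 over all genes. Ciita, the master activator of class II genes, was at 0.987, 3.61 and 5.29 CPM in the 3 sham samples. After transplant Ciita was at 3.60, 18.1 and 25.3 CPM on days 1, 3 and 7, and with raised flow at 4.20, 15.4 and 28.7 CPM (log2 fold change 1.68 ± 0.34, adjusted p = 0.0276). Ifi30, the lysosomal reductase that opens antigens, was at 880.1, 1019 and 737 CPM in sham and 1170.1 to 2906 CPM with a median of 2137 after LT (log2 fold change 1.19 ± 0.18, adjusted p = 0.0169), with no overlap. Cd74, the invariant chain, was at 5784, 7492 and 8456 CPM in the 3 sham samples. After transplant Cd74 was at 5206, 5266 and 14600 CPM on days 1, 3 and 7, and with raised flow at 2938, 14763 and 15612 CPM (log2 fold change 0.23 ± 0.33, adjusted p = 0.667). The day 1 samples and transplant day 3 were below every sham sample for Cd74, and the other 3 LT samples were above every sham sample. The class II chains RT1-Da, RT1-Db1 and RT1-Ba had log2 fold changes between days 7 and 1 of 2.30, 2.35 and 2.27 (adjusted p = 0.101, 0.101 and 0.0795). Counts of these related genes may be split between copies. Markers of lymphoid cells were higher in members of the day 7 samples as well. From the 2 day 1 to the 2 day 7 samples, the sum of 4 B cell markers went from 0.495 and 0.982 to 3.71 and 5.31 CPM (Cd79b at 0 by the rule), and that of 3 plasma cell markers from 0 in both to 9.63 and 12.5 CPM (Derl3 at 0). The sum of 5 NK cell markers went from 5.32 and 50.7 to 115 and 129.6 CPM, and that of 5 T cell markers from 4.58 and 6.80 to 18.9 and 29.4 CPM. Their part in the class II values was not tested. Cd74 was also high in the epithelium of the same libraries: after thinning to 2000 UMIs, the share of epithelial cells with a Cd74 UMI was 2.07% and 2.59% in the day 1 samples and 90.9% and 89.0% in the day 7 samples.

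Of 19 tested lipid-associated macrophage genes, which mark macrophages that have taken up debris and fat, 4 rose and none fell (median 0.30). Gpnmb, a transmembrane glycoprotein of this state, was at 76.96, 153 and 66.5 CPM in the 3 sham samples. After transplant Gpnmb was at 363, 759 and 545 CPM on days 1, 3 and 7, and with raised flow at 319.8, 309 and 334 CPM (log2 fold change 2.07 ± 0.33, adjusted p = 0.0185), with every LT sample above every sham sample. Nr1h3, the sterol sensor LXR-alpha, was at 3.95, 5.78 and 3.31 CPM in sham and 6.75 to 34.1 CPM with a median of 20.6 after LT (log2 fold change 2.16 ± 0.41, adjusted p = 0.0247). Fabp5, a fatty acid carrier, was at 200.3, 396 and 408 CPM in sham and 476 to 2060.5 CPM with a median of 789.7 after LT (log2 fold change 1.29 ± 0.34, adjusted p = 0.0495). Both were separate from sham on the TMM scale. Unscaled, the libraries of raised flow day 3 held 5.39 and 6.10 CPM of Nr1h3, against 6.01 CPM in sham 2. Apoe was at 1724, 3408 and 5043 CPM in the 3 sham samples. After transplant Apoe was at 3455, 17612 and 24854 CPM on days 1, 3 and 7, and with raised flow at 3159, 6719 and 13258 CPM (log2 fold change 1.38 ± 0.35, adjusted p = 0.048), with the day 1 samples inside the sham range and the others above it. The call of Apoe was lost in 6 of 14 alternatives and kept in 1 of 9 leave-one-out fits, and that of Fabp5 was lost in 7 and kept in 2. Trem2, the lipid receptor whose name is often given to this state, was at 52.3 to 285 CPM in sham and 82.2 to 305 CPM with a median of 136 after LT (log2 fold change -0.56 ± 0.45, adjusted p = 0.425). Spp1, or osteopontin, was at 33.3 to 166 CPM in sham and 118 to 304 CPM with a median of 200.3 after LT (log2 fold change 1.21 ± 0.49, adjusted p = 0.138). In the iron list, 3 of 13 rose and none fell (median 0.63). Slc11a1, the phagosomal metal transporter, had a log2 fold change of 1.81 ± 0.25, adjusted p = 0.0125, Blvra, or biliverdin reductase, 1.24 ± 0.29, adjusted p = 0.0381, and Fth1, the ferritin heavy chain, 0.83 ± 0.16, adjusted p = 0.0255.

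Of 14 monocyte genes tested, 5 rose and none fell (median 0.90). Fcnb was at 55.3, 21.4 and 11.9 CPM in the 3 sham samples. After transplant Fcnb was at 83.2, 137 and 154 CPM on days 1, 3 and 7, and with raised flow at 127, 247 and 163 CPM (log2 fold change 2.40 ± 0.46, adjusted p = 0.0251). Plac8 was at 505, 604 and 227 CPM in sham and 867 to 4581 CPM with a median of 1947 after LT (log2 fold change 2.09 ± 0.39, adjusted p = 0.0244). The groups did not overlap for Fcnb or Plac8. Libraries 1, 2 and 3 of transplant day 1 held 91.9, 0 and 0 unscaled CPM of Fcnb and 912, 376 and 329 of Plac8. Those of raised flow day 1, with 519, 267 and 444 members, held 243, 41.9 and 2.99 of Fcnb and 1882, 297 and 231 of Plac8. The sham samples held 12.7 to 63.8 and 242 to 627 unscaled CPM of the 2 genes. The height of both day 1 samples thus rested on library 1 of each. As unscaled means over all samples, both genes were lower in members than in all other kept barcodes. Fcnb was at 106.5 against 152.5 CPM and Plac8 at 1485 against 2513 CPM. S100a8 and S100a9, the calgranulins of monocytes and neutrophils, had log2 fold changes of 3.40 ± 0.38, adjusted p = 0.0107, and 3.46 ± 0.49, adjusted p = 0.014. S100a8 was at 77.95, 24.8 and 61.8 CPM in the 3 sham samples. After transplant S100a8 was at 5170.2, 376 and 379 CPM on days 1, 3 and 7, and with raised flow at 1863, 122 and 188 CPM, and the 3 libraries of transplant day 1 held 5670, 1404 and 13.8 unscaled CPM. Vcan had a log2 fold change of 2.31 ± 0.64, adjusted p = 0.0576. S100a8 and S100a9 are also neutrophil markers, and the part of neutrophils in the values was not tested. The sum of S100a8, S100a9, Csf3r, Cxcr2 and Retnlg in members was 81.9 to 252 CPM in sham, 4225 and 12749 CPM at day 1 and 341 to 12749 CPM over all LT samples, with 3 of the 5 risen. S100a8 and S100a9 made up most of that sum. Of the other 3 markers, Csf3r was at 5.92 to 14.2 CPM in sham and 13.9 to 45.2 CPM with a median of 21.5 after LT (log2 fold change 1.22 ± 0.32, adjusted p = 0.0494), Retnlg at 0 to 5.06 CPM and 5.35 to 53.7 CPM with a median of 15.96 (adjusted p = 0.0583), and Cxcr2 at no more than 2.95 CPM in any sample. Csf3r and Retnlg were highest in transplant day 1. In other barcodes S100a8 was at 115 CPM in sham and 3415 CPM after LT. Calls of Fcnb and S100a8 were lost in the gate without Csf3r and 5 other lineage genes (adjusted p = 0.12 and 0.065), with log2 fold changes of 1.88 and 4.04. The call of S100a8 was also lost in the model without terms for day and raised flow (log2 fold change 4.63, adjusted p = 0.051).

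Of 20 inflammatory cytokine genes, 3 rose, 3 fell and 14 were not called (median -0.27). Il18 was at 113, 106 and 85.3 CPM in sham and 194 to 274 CPM with a median of 223 after LT (log2 fold change 1.17 ± 0.18, adjusted p = 0.0169), without overlap, next to the rise of its inhibitor Il18bp. Nos2, the inducible nitric oxide synthase, was at 2.96, 1.45 and 0.992 CPM in sham and 6.43 to 58.2 CPM with a median of 21.8 after LT (log2 fold change 3.90 ± 0.80, adjusted p = 0.0285). The mean of Nos2 after LT was lower in members than in all other kept barcodes. Acod1, which makes itaconate, was at 0, 0.482 and 0 CPM in sham and 3.83 to 32.97 CPM with a median of 12.3 after LT (adjusted p = 0.018), with too few sham counts for a fold change. Nlrp3, the inflammasome sensor, and Tnfaip3 and Tnfaip2, targets of NF-kB, fell with log2 fold changes of -0.99 ± 0.17, adjusted p = 0.0215, -1.47 ± 0.20, adjusted p = 0.0123, and -1.23 ± 0.22, adjusted p = 0.0235. All 3 were below every sham sample in every LT sample. Il1b was at 1165, 1421 and 1829 CPM in the 3 sham samples. After transplant Il1b was at 886, 545 and 1247 CPM on days 1, 3 and 7, and with raised flow at 726, 1308 and 1099 CPM (log2 fold change -0.63 ± 0.27, adjusted p = 0.154), and Tnf, Il6 and Il10 were at no more than 10.9 CPM in any sample.

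Of 18 chemokine genes tested, 3 rose and 2 fell (median -0.72). Cxcl9 and Cxcl11, ligands of CXCR3 on activated T cells, and Cxcl13 rose. The mean of Cxcl9 after LT was lower in members than in all other kept barcodes, so it was not among the 12 named rises. Cxcl9 was at 16.8, 2.41 and 2.31 CPM in the 3 sham samples. After transplant Cxcl9 was at 30.8, 58.3 and 231 CPM on days 1, 3 and 7, and with raised flow at 22.9, 587 and 397 CPM (log2 fold change 4.63 ± 0.90, adjusted p = 0.0259), highest in raised flow days 3 and 7. Ccl2, which draws monocytes through CCR2, was at 873, 4316 and 5121 CPM in the 3 sham samples. After transplant Ccl2 was at 1020.4, 1076 and 549 CPM on days 1, 3 and 7, and with raised flow at 1712, 1699.8 and 633 CPM (log2 fold change -1.75 ± 0.44, adjusted p = 0.0449), with sham 1 in the range of the LT samples. The call of Ccl2 was lost in 4 of 14 alternatives, and the medians of the biliary and fibroblast marker sums given above were also lower in members after LT, whose part in these values was not tested. Ccl3 fell, with 232 to 290.1 CPM in sham and 114 to 192 CPM with a median of 150.2 after LT (log2 fold change -0.79 ± 0.18, adjusted p = 0.0339). Cxcl10, the third ligand of CXCR3, had a log2 fold change of 1.18 ± 0.52, adjusted p = 0.163, and the neutrophil chemokines Cxcl1 and Cxcl2 -1.02 ± 0.44, adjusted p = 0.156, and -0.93 ± 0.30, adjusted p = 0.0789. Reads of closely related chemokine genes may be split.

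Interferon-stimulated genes gave 2 rises among 24 tested and no fall (median 0.60). Gbp2, a guanylate-binding protein, was at 37.5, 64.1 and 51.9 CPM in sham and 72.96 to 670.2 CPM with a median of 215 after LT (log2 fold change 1.94 ± 0.37, adjusted p = 0.0254). Isg15 was at 155, 74.7 and 104 CPM in the 3 sham samples. After transplant Isg15 was at 1018, 175 and 536 CPM on days 1, 3 and 7, and with raised flow at 87.2, 651 and 209 CPM (log2 fold change 1.93 ± 0.74, adjusted p = 0.123). Its highest and lowest LT samples were both of day 1. Ifit1 was at 0 in all 3 sham samples and at 0.247 to 4.91 CPM after LT, and was not called.

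Enzymes of the lower part of glycolysis rose. Of 22 tested genes of glycolysis and hypoxia, 7 rose and none fell (median 0.64), and 9 were separate from sham with higher values. Over all genes tested, 10.7% were separate from sham with higher values. Pgk1, Pgam1, Eno1, Pkm and Ldha, the enzymes from phosphoglycerate kinase to lactate dehydrogenase, had log2 fold changes of 1.38, 0.94, 1.34, 0.81 and 1.26 (adjusted p = 0.0125, 0.0203, 0.0123, 0.0339 and 0.0123). Pgk1 was at 259.5, 243 and 179 CPM in the 3 sham samples. After transplant Pgk1 was at 1002, 686 and 457 CPM on days 1, 3 and 7, and with raised flow at 654, 579 and 358 CPM. Ldha was at 349, 351 and 338 CPM in the 3 sham samples. After transplant Ldha was at 1009, 859 and 808 CPM on days 1, 3 and 7, and with raised flow at 773, 942 and 618 CPM. For both genes all LT samples were above sham, and the day 1 value was the highest transplant value. Neutrophil markers in members were also highest at day 1 (given above), and their part in these values was not tested. Hif1a, the oxygen-regulated transcription factor, and Bnip3, its mitophagy target, rose by 0.88 ± 0.19, adjusted p = 0.0304, and 1.09 ± 0.20, adjusted p = 0.0243 on the log2 scale. Calls of Pkm, Hif1a and Bnip3 were lost without the day 1 samples (chosen after seeing the data) and in the gate without 6 further lineage genes. The lowest log2 fold changes of these 3 genes in any alternative or leave-one-out fit were 0.61, 0.71 and 0.91. The glucose transporter Slc2a1 had a log2 fold change of 0.70 ± 0.42, adjusted p = 0.282. In Csf1r-positive C1q-negative cells Ldha was at 811 CPM in sham and 1509 CPM after LT, and in other barcodes at 356 and 1094 CPM.

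Of 17 genes of the oxidative stress response, 4 rose and 1 fell (median 0.28). Txn1, or thioredoxin, was at 878, 1211 and 887 CPM in sham and 1855 to 6918 CPM with a median of 3692 after LT (log2 fold change 1.78 ± 0.23, adjusted p = 0.0123). Prdx1, a peroxiredoxin, was at 838, 1018 and 886 CPM in sham and 1434 to 2405 CPM with a median of 1772 after LT (log2 fold change 0.99 ± 0.19, adjusted p = 0.0247). Gclm, of glutathione synthesis, and Me1, which makes NADPH, rose by 0.84 ± 0.21, adjusted p = 0.0459, and 2.34 ± 0.50, adjusted p = 0.0308 on the log2 scale. Nfe2l2, the transcription factor NRF2 that drives such genes, was at 243, 458 and 515 CPM in sham and 146 to 218 CPM with a median of 186 after LT (log2 fold change -1.17 ± 0.24, adjusted p = 0.0292). All 5 genes were separate between the groups. Among 15 selenoprotein genes 3 rose and 1 fell (median 0.24). Msrb1, a methionine sulfoxide reductase, and Selenot and Selenos, of the endoplasmic reticulum, had log2 fold changes of 1.18, 0.88 and 0.78 (adjusted p = 0.0215, 0.0241 and 0.0468), and the secreted Selenop fell as given above.

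Immediate early genes, which respond within minutes to stimuli and are also known to rise during enzyme digestion, fell in part. Of 24 tested, none rose and 7 fell (median -0.72). Atf3 was at 811, 718 and 857 CPM in the 3 sham samples. After transplant Atf3 was at 266, 333 and 429 CPM on days 1, 3 and 7, and with raised flow at 291, 406 and 519.8 CPM (log2 fold change -1.13 ± 0.14, adjusted p = 0.0123). Klf6 was at 295, 304 and 296 CPM in sham and 92.8 to 133 CPM with a median of 119 after LT (log2 fold change -1.38 ± 0.18, adjusted p = 0.0123). Both transcription factors were below every sham sample in every LT sample. Libraries 1, 2 and 3 of transplant day 1 held 88.2, 489 and 363 unscaled CPM of Klf6, against 315 to 341 in sham. Its low value in transplant day 1 thus rested on library 1. For Atf3 these libraries held 217, 727 and 533 unscaled CPM, each below the sham samples at 745 to 937. Jun, Egr1, Dusp1, Zfp36 and the heat shock gene Hspa1b had log2 fold changes of -0.92, -0.92, -0.70, -0.93 and -1.57 (adjusted p = 0.0198, 0.0303, 0.0482, 0.0296 and 0.0164). In all other barcodes Atf3 was at 932 CPM in sham and 476 CPM after LT. The medians of the biliary and fibroblast marker sums were lower in members as well. The part of tissue handling and of these cells in the values was not tested.

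Growth factor and matrix genes gave 3 rises and 2 falls among 23 (median 0.24). Pdgfa, a mitogen of fibroblasts, rose, with 10.6 to 20.7 CPM in sham and 26.5 to 33.6 CPM with a median of 28.1 after LT (log2 fold change 0.97 ± 0.24, adjusted p = 0.0419). Hbegf, a ligand of the EGF receptor, fell, with 42.4 to 95.2 CPM in sham and 13.8 to 47.5 CPM with a median of 29.01 after LT (log2 fold change -1.23 ± 0.29, adjusted p = 0.0378). The neutrophil proteases Mmp8 and Mmp9 rose, with 0.942 to 36.99 and 1.10 to 37.6 CPM after LT and their highest values at day 1, where the neutrophil markers were highest. Tgfb1 had a log2 fold change of -0.43 ± 0.18, adjusted p = 0.148. Of 21 macrophage transcription factors, 1 rose (Nr1h3) and 2 fell (among them Rel), with a median of -0.07. Rel, an NF-kB subunit, was at 151, 169 and 188 CPM in sham and 55.8 to 143 CPM with a median of 88.4 after LT (log2 fold change -1.003 ± 0.17, adjusted p = 0.0203). Crem, a cAMP-responsive regulator, was at 157, 601 and 573 CPM in the 3 sham samples. After transplant Crem was at 138, 159.7 and 405 CPM on days 1, 3 and 7, and with raised flow at 207, 373 and 419 CPM (log2 fold change -0.77 ± 0.39, adjusted p = 0.209).

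Of 15 checkpoint and costimulation genes, Lilrb4, an inhibitory receptor, rose, with 46.9 to 79.5 CPM in sham and 87.8 to 175 CPM with a median of 150.3 after LT (log2 fold change 1.12 ± 0.22, adjusted p = 0.0275). Cd86, the costimulatory ligand of CD28, fell, with 128, 113 and 133 CPM in sham and 36.01 to 75.3 CPM with a median of 66.96 after LT (log2 fold change -1.004 ± 0.20, adjusted p = 0.0271). Havcr2, or TIM-3, fell, with 26.6, 22.7 and 34.4 CPM in sham and 6.96 to 14.5 CPM with a median of 9.31 after LT (log2 fold change -1.48 ± 0.25, adjusted p = 0.0203). The 3 genes were separate between groups, and the median of the list was 0.10. Libraries 1, 2 and 3 of transplant day 1 held 59.7, 150 and 118 unscaled CPM of Cd86, against 117 to 148 in sham. They held 3.62, 62.7 and 27.7 unscaled CPM of Havcr2, against 23.5 to 36.6 in sham. The low values of both genes in transplant day 1 thus rested on library 1, while Lilrb4 was above sham in each library. Among 7 Fc receptor genes, Fcgr2b, the inhibitory receptor for IgG, rose, with 35.05 to 65.1 CPM in sham and 83.4 to 239 CPM with a median of 121 after LT (log2 fold change 1.53 ± 0.40, adjusted p = 0.0496), and 6 were not called (median 0.69). Of 11 efferocytosis genes, Mertk rose and its relative Axl fell (log2 fold change -1.002 ± 0.25, adjusted p = 0.0434), with a median of -0.75. Of 25 cell cycle genes, none rose and 1, the microtubule regulator Stmn1, fell, with 406 to 505 CPM in sham and 163 to 373 CPM with a median of 268 after LT (log2 fold change -0.92 ± 0.17, adjusted p = 0.0244). Mki67, the marker of cycling cells, was at 12.8, 57.1 and 46.6 CPM in sham and 6.22 to 55.7 CPM with a median of 30.4 after LT (log2 fold change -0.39 ± 0.55, adjusted p = 0.66). Medians of the 3 lists that hold a gene at 0 in all sham samples (Marco, Ifit1 or Tnfsf14) stayed as given when that gene was set to its bound from 3 counts over the summed sham members.

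**Figure D5:**
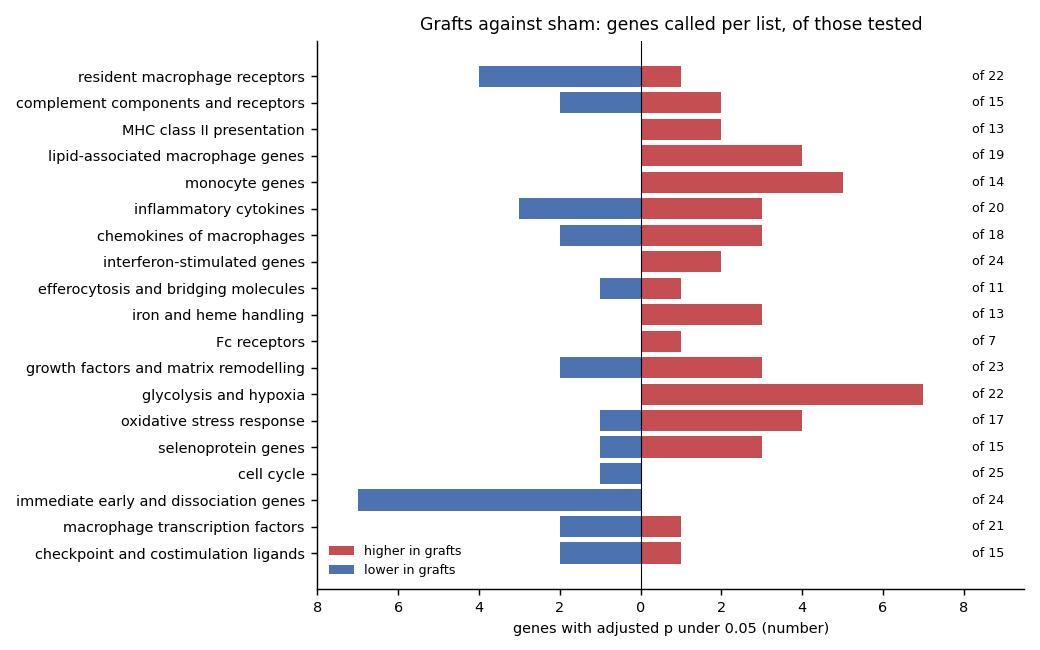
Number of genes called higher (right) and lower (left) after LT in C1q-positive macrophages for each of the 19 gene lists. Glycolysis and hypoxia has 7 rises and no fall, and the immediate early list has 7 falls and no rise. Over all 11125 genes, 4.77% were called higher and 4.75% lower.

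Time after LT was compared between day 7 and day 1 over both treatments. The test called 12 of 11125 genes (0.108%), 7 higher (0.0629%) and 5 lower (0.0449%) at day 7, and 1224 genes had an unadjusted p under 0.05. With 1 sample per day and treatment, calls rested on 2 samples a side, and 187 genes were called without sham 1, 0 without sham 3, transplant day 3, transplant day 7 or raised flow day 3, and 1 to 5 without each other sample. RT1-DOa, a class II-like chain that regulates peptide loading, was at 2.62 and 6.31 CPM in the day 1 samples and at 48.04 and 41.1 CPM in the day 7 samples of transplant and raised flow (log2 fold change 3.23 ± 0.41, adjusted p = 0.0416), beside the higher B cell, plasma cell, NK cell and T cell marker sums at day 7 given above, whose part was not tested. Slc1a3, a glutamate transporter, went from 2.95 and 3.83 CPM to 29.3 and 32.03 CPM (log2 fold change 3.13 ± 0.37, adjusted p = 0.0416). N4bp2l1 went from 11.8 and 10.4 CPM to 38.9 and 42.2 CPM (log2 fold change 1.88 ± 0.25, adjusted p = 0.0447). Values of day 3 lay between those of days 1 and 7 for these 3 genes in both treatments. Pdpn, or podoplanin, the ligand of platelet CLEC-2, fell from 203 and 232 CPM to 13.8 and 3.55 CPM (log2 fold change -5.01 ± 0.54, adjusted p = 0.0416), with 33.5 to 47.3 CPM in sham. Cd207 was also called lower at day 7 (log2 fold change -5.38 ± 0.70, adjusted p = 0.0447). Of the 4 other genes higher at day 7, also named after their values were seen and lower in members than in other cells, Igh-6, the heavy chain of IgM, went from a mean of 0.0618 CPM at day 1 to 56.4 CPM at day 7, and Cd69, an activation marker of lymphocytes, from 8.73 to 105 CPM (adjusted p = 0.0416 for both). The 3 other genes lower at day 7, named after their values were seen, were Ptx3, Pglyrp1 and LOC691143, with log2 fold changes of -5.53, -3.06 and -2.37. All 3 were also lower in members than in other cells at day 1. None of the 22 residency genes was called between days 7 and 1. Their log2 fold changes had both signs, with -3.65 for F13a1, -3.38 for Lyve1 and -2.43 for Cd163 (adjusted p = 0.17, 0.273 and 0.132), -1.16 for Mrc1, 0.19 for Mertk and 0.40 for Selenop, and a median of -1.11 over the list. The comparison with sham and the comparison of days share the LT samples.

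Raised flow was compared with transplant over the 3 days, to ask whether arterial flow altered these macrophages. With edgeR 0 of 11125 genes were called (379, or 3.41%, at an unadjusted p under 0.05), and DESeq2 called 2, Angptl4 (log2 fold change -2.04, adjusted p = 0.0024) and Ca4 (log2 fold change -4.62, adjusted p = 1.85e-06), which were named after their values were seen. No gene of the 19 lists was called, and list medians ran from -0.44 to 0.37, against -0.01 over all genes. Among the residency genes Mrc1 had means of 389 CPM in transplant and 522 CPM in raised flow samples, and Selenop 59.8 and 22.9 CPM (log2 fold changes 0.16 ± 0.68 and -1.13 ± 0.42, adjusted p = 0.999 and 0.999). Spp1 had 274 and 130 CPM and Cxcl9 107 and 336 CPM (log2 fold changes -1.08 ± 0.54 and 1.21 ± 0.81). The absence of edgeR calls with 3 samples a side does not show that the treatments were alike.

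Whether a change after LT differed between members and Csf1r-positive C1q-negative cells was tested as an interaction in 11603 genes. It called 23 genes (0.198%), 19 with a more positive log2 change in members (0.164%) and 4 with a more negative one (0.0345%), with 1097 genes (9.45%) at an unadjusted p under 0.05. Of the 23, 15 were lower in members than in other cells, most of them enzymes of the exocrine pancreas, whose part in the other calls was not tested. Il1rn, the antagonist of the interleukin 1 receptor, had means of 178 CPM in sham and 156 CPM after LT in members, against 143 and 314 CPM in the C1q-negative cells (difference of log2 fold changes -1.34 ± 0.21, adjusted p = 0.024). Ncf1, a subunit of the phagocyte NADPH oxidase, had 132 CPM in sham and 105 CPM after LT in members, against 64.7 and 147 CPM in the C1q-negative cells (difference of log2 fold changes -1.51 ± 0.24, adjusted p = 0.024). Ramp3, a partner of the adrenomedullin receptor, had 11.3 CPM in sham and 27.01 CPM after LT in members, against 54.3 and 22.4 CPM in the C1q-negative cells (difference of log2 fold changes 2.50 ± 0.41, adjusted p = 0.03). Man1a1, a Golgi mannosidase, had 27.1 CPM in sham and 36.5 CPM after LT in members, against 45.2 and 26.5 CPM in the C1q-negative cells (difference of log2 fold changes 1.17 ± 0.21, adjusted p = 0.0404). RT1-DOa had 6.30 CPM in sham and 18.4 CPM after LT in members, against 19.3 and 8.83 CPM in the C1q-negative cells (difference of log2 fold changes 2.67 ± 0.42, adjusted p = 0.024). The chemokine Ccl17 had 13.1 CPM in sham and 10.2 CPM after LT in members, against 215 and 11.9 CPM in the C1q-negative cells (difference of log2 fold changes 3.81 ± 0.53, adjusted p = 0.012). In the C1q-negative cells Ccl17 was at 15.1, 295 and 336 CPM in sham 1, 2 and 3 and at 1.07 to 21.7 CPM after LT, so that sham 1 was inside the LT range. Sham 1 was also inside the LT range of the C1q-negative cells for Ramp3 and Man1a1, and all 3 sham samples were for RT1-DOa. For Il1rn, sham 3 was at 175 CPM in these cells, inside the LT range of 158 to 465 CPM. For Ncf1 the groups did not overlap in these cells. The C1q-negative gate held 55, 180 and 142 cells in the sham samples, and 51 genes were called without sham 1, and 1 without sham 3 or without transplant day 3.

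Shares of members that carried a state gene were compared after each member was thinned to 2000 UMIs, since depth differed between samples. Thinning left out 3334 shallower members and kept 105 to 2791 per sample. Of 11 genes compared by exact two-sided permutation tests, none passed Benjamini-Hochberg adjustment. A Gpnmb UMI was found in 12.99% ± 4.38 in sham and 38.3% ± 10.6 in LT samples (SD, exact permutation p = 0.0238, the smallest possible, adjusted p = 0.131). Its share was higher than in any sham sample in 6 of 6 LT samples, at 30.8% to 57.5% against 10.4% to 18.05%. A Fcnb UMI was found in 3.04% ± 0.696 in sham and 10.5% ± 5.55 in LT samples (SD, exact permutation p = 0.0238, adjusted p = 0.131), again higher in 6 of 6. Without thinning, the means were 17.4% and 49.7% for Gpnmb and 2.93% and 13.8% for Fcnb, and transplant day 1 was then inside the sham range for both genes, with 26.5% of members against 27.5% in sham 2 for Gpnmb and 3.01% against 4.71% for Fcnb (exact permutation p = 0.0476 and adjusted p = 0.262 for each). Epithelial cells thinned alike, which should lack both genes, had 0.306% with Gpnmb and 0.163% with Fcnb, at a median of 12830 UMIs before thinning. A Lyve1 UMI was found in 29.4% ± 20.2 in sham and 10.97% ± 9.27 in LT samples (SD, exact permutation p = 0.119), and a Folr2 UMI in 32.4% ± 17.4 in sham and 39.8% ± 7.71 in LT samples (SD, exact permutation p = 0.476). Cd163, Mrc1, Trem2, Il1b, Mki67, Cd74 and Spp1 had p values of 0.167 to 1 by the same exact permutation test, and the last 2 of these genes were also found in 30.1% and 42.3% of the epithelial cells.

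Members differed among themselves along the marker Folr2. Thinned members with and without a Folr2 UMI were set side by side within each sample, as description, since the split uses a measured gene. They numbered 13 and 92 in sham 1, 360 and 449 in sham 2, 262 and 389 in sham 3, and 110 to 1211 and 240 to 1678 in the LT samples. Residency genes went with Folr2 in 9 of 9 samples: Lyve1 averaged 2.83 against 1.01 UMIs per 10000, Cd163 3.56 against 1.21 UMIs per 10000, F13a1 1.84 against 0.578 UMIs per 10000, Selenop 1.41 against 0.453 UMIs per 10000 and Mrc1 8.31 against 3.68 UMIs per 10000. The neonatal Fc receptor Fcgrt (3.67 against 0.832 UMIs per 10000), the eosinophil chemokine Ccl24 (2.38 against 0.676 UMIs per 10000) and Apoe (143 against 53.7 UMIs per 10000) were also higher with Folr2 in 9 of 9. In the other direction, Mmp12 averaged 2.29 against 7.43 UMIs per 10000, the integrin Itgax 0.591 against 1.22 UMIs per 10000, Spp1 1.02 against 2.09 UMIs per 10000, Cd86 0.621 against 1.21 UMIs per 10000 and Fcnb 0.608 against 1.19 UMIs per 10000, each lower with Folr2 in 9 of 9 samples. Ccl5 showed the widest ratio, with 0.430 against 3.31 UMIs per 10000. S100a8 was lower with Folr2 in 7 of 9 samples (4.03 against 24.2 UMIs per 10000). Absence of a Folr2 UMI at this depth does not show that a cell lacked the gene.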

How the data were processed

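Single-cell libraries (10x, 3′) were made from rat bile duct. The deposited files hold raw UMI counts per gene and barcode, with all barcodes kept by the authors. The matrix headers name Cell Ranger 4, while the submitters' processing notes name Cell Ranger 5.0.1 and Seurat 3.2.0. The genome build is not given in the sources used here, so no coordinates are printed. Each of the 20 libraries lists 23999 genes with 23836 symbols. For raised flow day 3, 1 library was not analysed here.

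Barcodes were filtered and members selected with Python 3.11.15, and members' counts were summed per sample. Sums were tested with edgeR 4.0.16 (R 4.3.3; TMM, filterByExpr, quasi-likelihood F test, Benjamini-Hochberg adjustment) in a model with terms for sham, days 1, 3 and 7 and raised flow, which leaves 4 residual degrees of freedom. Single values were compared by exact two-sided permutation tests over samples (scipy 1.17.1). Member UMIs per sample ranged from 877601 to 22111029, which sets the precision for low genes. Since the labels do not say that samples were separate animals, p-values measure only the spread between these samples, which may be technical. The model fits day and raised flow, so its p-values for LT against sham do not measure the spread between days. They rest on the spread among sham samples and between treatments within a day. Without the terms for day and raised flow, 66 of the 90 called genes of the lists and the naming rule kept their call. No doublet caller was run. Barcodes with the excluded lineage genes were left out, and an alternative also left out the cells of highest UMI count. Scripts were tested on simulated data.

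Genes named beyond the lists were the 12 largest rises and 12 largest falls per comparison among called genes with at least 20 CPM in the higher group and a level in members at least as high as in all other kept barcodes, leaving out the genes of the selection rule, genes without a symbol, and ribosomal and mitochondrial genes. Of the 1059 called, 429 were eligible. Lists were given by role. Members and lists were chosen with earlier results of these data known. Alternatives covered scaling, the low-count filter, DESeq2 1.42.0, the gate, depth, free RNA, libraries as samples, model terms and each sample left out. Values of a few list genes are not reported here.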

Additional observations from a re-analysis of the deposited data

Results flagged for a closer look

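Results were picked out here where the change after LT differed between C1q-positive macrophages and Csf1r-positive C1q-negative cells by edgeR's interaction test, among genes named by the rule or held in a list. The difference in log2 fold change was 3.81 for Ccl17, 2.67 for RT1-DOa, 2.50 for Ramp3 and 1.17 for Man1a1, each more positive in members, and -1.34 for Il1rn and -1.51 for Ncf1, each more negative in members. Without sham 3 or without transplant day 3, 0 of these 6 stayed called, and 1 did without sham 2. The groups of the design hold 3 samples each, so no single sample was tested for standing apart from its group.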

How the results depend on the processing

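Of the values of single genes under the alternatives, 1519 kept direction and side of the threshold, 735 kept direction but lost the call, and none turned direction. For LT against sham, 1059 genes were called, against 1913 with DESeq2, 1593 with the gate applied after thinning, 576 without cells of very high UMI counts, 340 with no UMI of 6 further lineage genes and 423 without both day 1 samples (chosen after seeing the data), and 0 (without sham 3) to 2658 (without sham 1) with a sample left out. For day 7 against day 1, 12 were called, against 224 with DESeq2, 826 with each library as its own sample, 186 with no filter on low counts, 31 with the gate after thinning, 7 with a C1q minimum of 3 UMIs, 6 without the other terms, 5 with free RNA subtracted, 21 without libraries of under 100 members (chosen after seeing the data), and 0 to 187 with a sample left out. For raised flow against transplant, 0 were called, 2 with DESeq2, 2 with no filter, and 0 to 1 with a sample left out. For the difference from Csf1r-positive C1q-negative cells, 23 were called, 51 with DESeq2, 92 with no filter, and 1 to 51 with a sample left out. The difference in the share of C1q-positive macrophages among kept barcodes, -2.09 percentage points, turned to 0.761 with the gate after thinning (exact permutation p = 0.81), and was -4.07 to 0.493 with a sample left out. The cause was not tested. Libraries taken as samples may share an animal. No paired analysis was possible because of the labels for LT against sham, where only sham samples carry replicate numbers. Transplant and raised flow share days, and day was a term in their comparison, which called 0 genes with it and 0 without it.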
